A study of Mus musculus with 6 samples.

Results

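Tetraspanins are a family of small membrane proteins that gather integrins, proteases, receptors and other membrane proteins into shared patches, the tetraspanin webs. They cross the membrane several times and carry a large extracellular loop, through which most of them hold their partners. In pigment cells the family is best known for Cd63, a protein of late endosomes and lysosomes that helps sort the fibril-forming protein PMEL in the early melanosome, and Tspan10, or oculospanin, was first described in the eye. The genes described here are a fixed list of 30 mouse tetraspanins, found by gene ID among 36528 gene models. All 30 were present in the files, and 26 of them had enough reads to be among the 17121 genes tested.

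The series is polyA RNA from primary melanocytes of mouse skin, read as single-end sequences from 6 libraries, of which 3 carry the label BAP1 KO and 3 the label WT. BAP1 is a nuclear deubiquitinase and tumour suppressor, and the design sets knockout against wild type cells. How Bap1 was removed, the strain, the age of the animals and whether the libraries came from separate cultures are not stated in the labels, so each p-value speaks only to differences among the sequenced libraries, some or all of which may be technical. Libraries held 36447473 to 43773769 reads under the BAP1 KO label and 33987690 to 40025282 reads under the WT label. Bap1 itself was read at 73.6, 77.3 and 72.5 CPM in BAP1 KO-labelled libraries and at 55.7, 55.6 and 55.8 CPM in WT-labelled ones (CPM is counts scaled to a common library size). The targeted gene was 1.34-fold higher under the BAP1 KO label (adjusted p = 3.89e-06), so its counts do not bear out the label, and the counts pool all exons while the exons removed are not given. Each direction given here rests on the labels.

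All 12 melanocyte markers tested were higher in BAP1 KO-labelled libraries. Over all genes tested, 39.4% were higher and 42.1% lower by the same rule, given below. The melanocyte markers summed to 63559.8 to 64383 CPM under the BAP1 KO label and 6716 to 6794 CPM under the WT label. All 12 keratinocyte markers tested, of 13 listed, were lower, summing to 431 to 461 CPM under the BAP1 KO label and 9107 to 9285 CPM under the WT label. All 9 fibroblast markers were lower too, summing to 51.7 to 57.2 CPM under the BAP1 KO label and 1004 to 1031 CPM under the WT label. Of these, Lum stayed below the count filter's minimum of 0.266 CPM under the BAP1 KO label. Its being lower was thus fixed by the filter. None of the melanocyte or fibroblast markers was at 0 in either group. In bulk RNA of this kind, fewer cells of a type and less RNA per cell cannot be told apart. The part of these markers in the differences between tetraspanins was not tested.

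Of the 26 tetraspanins tested, 9 were higher and 16 lower in BAP1 KO-labelled libraries, and Cd37 did not pass the threshold. Calls were made at a Benjamini-Hochberg adjusted p under 0.05 over all genes tested, with edgeR's quasi-likelihood test. Over all genes tested this rule called 81.5%, of which 39.4% were higher and 42.1% lower as shares of all tested, so a call alone says little about a member here. The values of the 2 labels did not overlap for 25 of the 26, where the share over all genes tested was 82.7%. Of the tetraspanins 10 passed the test with a difference over 2-fold, 3 of them higher and 7 lower, beside 36.6% of all genes tested, with 13.9% higher and 22.7% lower. The median log2 fold change of the 26 was -0.26, beside -0.028 for all genes tested, and the median size regardless of sign was 0.68 in both. The size of the changes within the family thus lay close to that of the transcriptome, while single members ranged from -4.53 for Upk1b to 3.29 for Tspan10. Of the tested members, Tspan1, Tspan33 and Upk1b passed the count filter through the WT libraries alone.

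**Figure D1:**
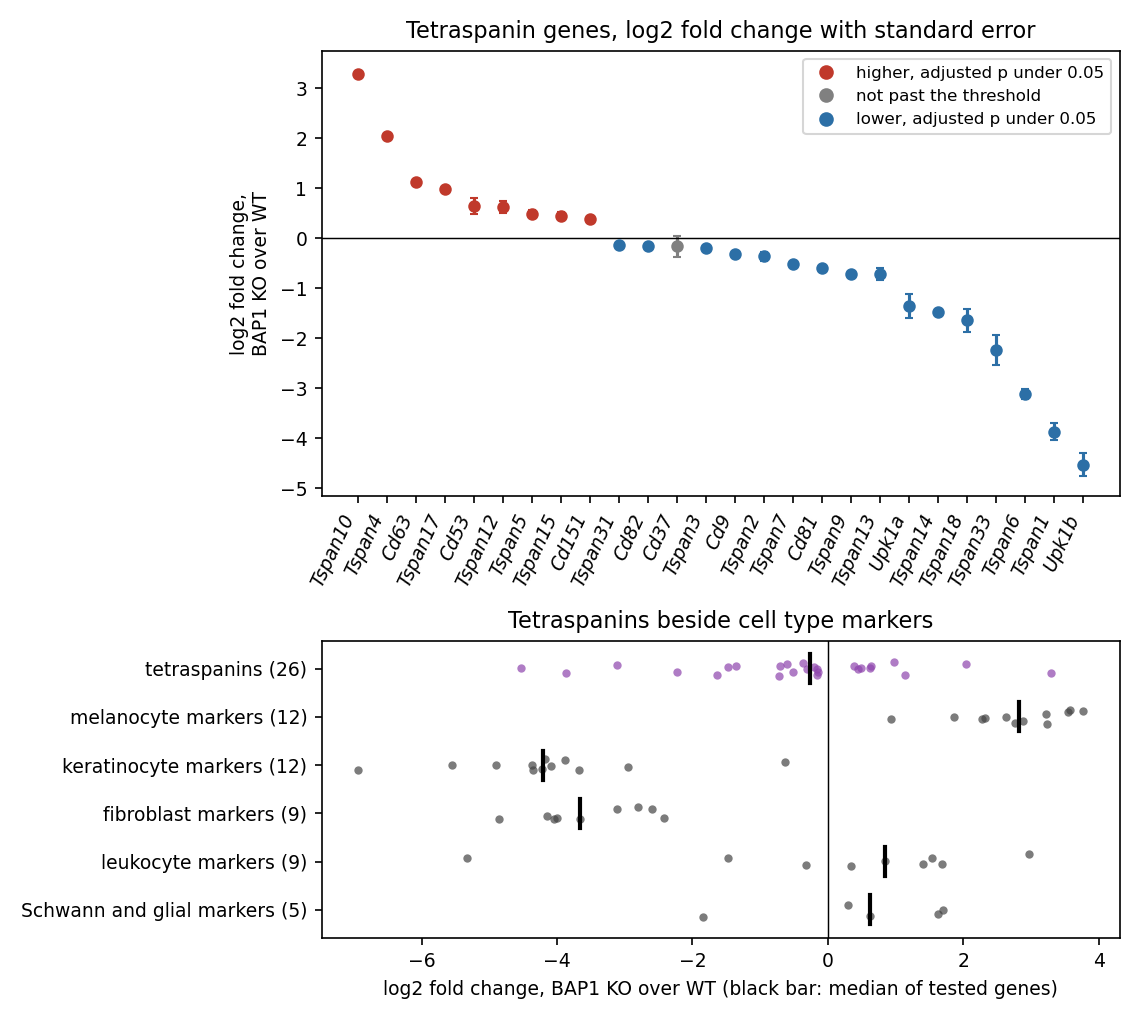
Top, log2 fold change of the 26 tested tetraspanin genes (libraries labelled BAP1 KO over WT-labelled ones, 3 each) with its standard error as bars, in order of size and coloured by call. Bottom, the same quantity for the tetraspanins beside 5 lists of cell type markers, 1 point a gene, with the number tested in brackets and black bars at the medians. Tspan10 at 3.29 lies within the range of the melanocyte markers. Upk1b at -4.53 and Tspan1 at -3.87 passed the count filter through the WT libraries alone. Their being lower was thus fixed by the filter.

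The family's summed level was somewhat higher in BAP1 KO-labelled libraries, and its makeup differed more than its sum. The deposited RPKM, which divides reads by gene length and library size and so allows levels to be set side by side between genes, summed over the 30 genes to 1765 ± 9.54 RPKM in BAP1 KO-labelled libraries and to 1627 ± 39.4 RPKM in WT-labelled ones (mean ± SD, n = 3 each). The 3 BAP1 KO-labelled sums all exceeded the 3 WT-labelled ones. Cd81 had the highest RPKM under both labels, but made up 19.5 ± 0.123% of the sum in BAP1 KO-labelled libraries and 31.5 ± 0.673% in WT-labelled ones. The share of Cd63 was 16.1 ± 0.548% under the BAP1 KO label and 7.80 ± 0.115% under the WT label. Tspan10 made up 9.87 ± 0.236% of the sum in BAP1 KO-labelled libraries, where it was the fifth most abundant tetraspanin, and 1.07 ± 0.0540% in WT-labelled ones, where it ranked 14 of 30. Tspan6 went the other way, with 0.324 ± 0.0101% under the BAP1 KO label and 2.99 ± 0.428% under the WT label. In every BAP1 KO-labelled library 19 tetraspanins reached 1 RPKM, and in WT-labelled ones 21 or 22 did.

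**Figure D2:**
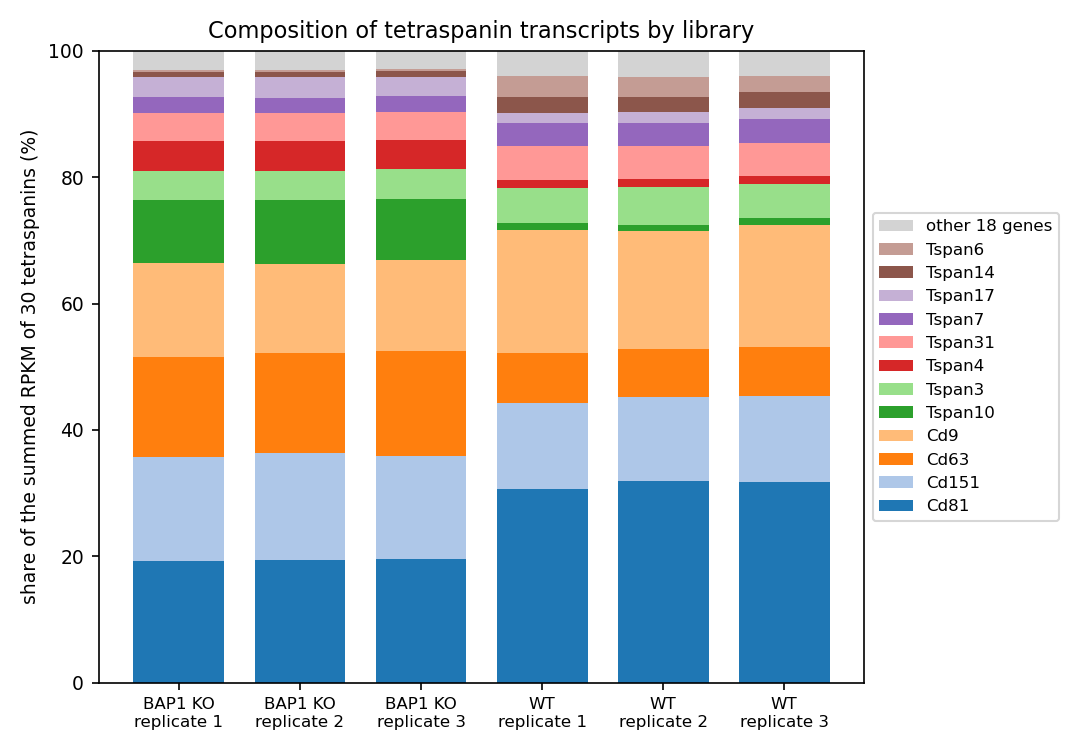
Share of each tetraspanin in the summed deposited RPKM of the 30 genes (vertical axis, percent), 1 bar a library, for the 3 BAP1 KO-labelled libraries and then the 3 labelled WT. The 12 genes shown by name include Tspan10, at 9.87 ± 0.236% under the BAP1 KO label and 1.07 ± 0.0540% under the WT label. The grey part holds the other 18.

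Of the 29 neighbouring pairs in the order of levels, 13 overlapped between libraries under the BAP1 KO label and 9 under the WT label. In BAP1 KO-labelled libraries the order by RPKM began with Cd81, Cd151, Cd63, Cd9 and Tspan10, and the neighbours Cd151 and Cd63 overlapped between libraries. Tspan4, Tspan3 and Tspan31 came next and also overlapped, neighbour by neighbour, as did Tspan9 with Tspan14, Tspan12 with Tspan5, Upk1a with Cd37, and each pair from Tspan18 down. In WT-labelled libraries it began with Cd81, Cd9, Cd151, Cd63 and Tspan3, each apart from the next in every library. Tspan10 there came after Tspan4 and before Tspan2, apart from both. The overlapping neighbours under the WT label were Cd82 with Tspan4, Tspan2 with Tspan15, the run of Tspan13, Tspan5, Tspan12 and Upk1b, the run of Tspan33, Cd53 and Tspan18, and the run of Tspan32, Tspan8 and Tspan11.

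**Figure D3:**
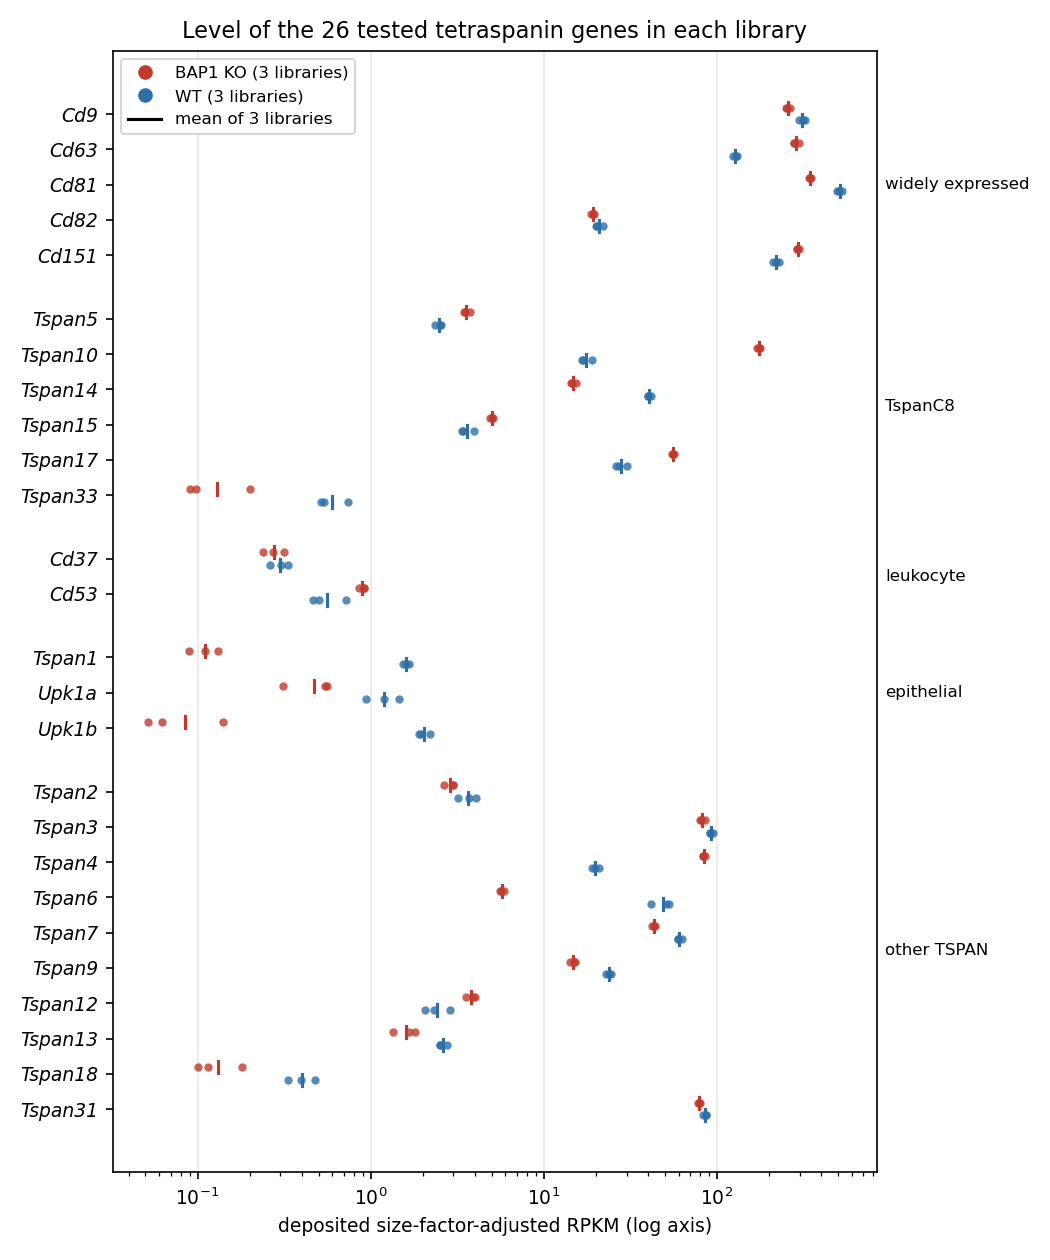
Deposited size-factor-adjusted RPKM (horizontal axis, logarithmic) of the 26 tested tetraspanins in each library, grouped by role. Points are libraries and vertical strokes the mean of 3, with BAP1 KO-labelled libraries above WT-labelled ones in each row. The widely expressed members, apart from Cd82, lie above 100 RPKM under both labels, while the epithelial and leukocyte members lie below 3 RPKM.

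Among the 5 widely expressed members, Cd63 and Cd151 were higher and Cd81, Cd9 and Cd82 lower in BAP1 KO-labelled libraries. Cd63, the endosomal and melanosomal member (gene ID 12512, chromosome 10, 128896231 to 128912822 on GRCm38), was read at 356, 358 and 384 CPM in BAP1 KO-labelled libraries and at 168, 165 and 168 CPM in WT-labelled ones. Every BAP1 KO-labelled library stood above every one labelled WT, by 2.19-fold (log2 1.13, SE 0.04, adjusted p = 5.53e-10). Among all 50-base stretches of its transcripts 11.1% also occur in other annotated genes, mostly the pseudogene Cd63-ps, and reads falling there would not be unique. Cd151, which holds the laminin-binding integrins in place at the cell base, was read at 615, 635 and 617 CPM in BAP1 KO-labelled libraries and at 474, 466 and 492 CPM under the WT label. The groups were apart, and the difference was small at 1.30-fold (adjusted p = 1.79e-06).

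Cd81, a partner of the immunoglobulin proteins PTGFRN and IGSF8, was read at 546, 553 and 561 CPM in BAP1 KO-labelled libraries and at 812, 852 and 861 CPM in WT-labelled ones. It was the tetraspanin with the most reads under the WT label, and was 1.52-fold lower under the BAP1 KO label (log2 -0.61, SE 0.035, adjusted p = 3.64e-08). Cd9, a partner of the same proteins and needed on the egg for fusion with sperm, was read at 330.2, 316 and 323 CPM in BAP1 KO-labelled libraries and at 405, 389 and 409.5 CPM in WT-labelled ones. Its libraries did not overlap, and the log2 fold change was -0.31, SE 0.036 (adjusted p = 1.26e-05). Exons of Cd9 overlap the opposite-strand gene Gm26728 over 10.7% of their bases, and Gm26728 itself had at most 0.0279 CPM in any library. Cd82, known as a suppressor of metastasis, was read at 42.9, 42.9 and 41.5 CPM in BAP1 KO-labelled libraries and at 45.3, 46.8 and 49.4 CPM under the WT label. Its adjusted p was the highest among the called tetraspanins (log2 -0.15, SE 0.048, adjusted p = 0.0123). Without replicate 3 labelled BAP1 KO its log2 fold change was -0.12, with adjusted p = 0.0692, and without replicate 3 labelled WT it was -0.086, with adjusted p = 0.0887.

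The 6 members of the TspanC8 group are named for the cysteines of their large loop and escort the protease ADAM10, which sheds the outer parts of Notch, cadherins and other surface proteins, out of the endoplasmic reticulum. In BAP1 KO-labelled libraries 4 of the 6 were higher and 2 lower, beside 39.4% higher and 42.1% lower over all genes tested. Of the 2 lower, Tspan33 passed the count filter through the WT libraries alone, so no direction is read from it. Tspan10 (gene ID 208634, chromosome 11, 120442631 to 120447321 on GRCm38) was read at 379.6, 389.9 and 375 CPM in BAP1 KO-labelled libraries and at 37.4, 37.7 and 41.8 CPM in WT-labelled ones. This 9.79-fold difference (log2 3.29, SE 0.051, adjusted p = 9.78e-13) was the highest of the tested tetraspanins, and its size lay at percentile 91.3 of all genes tested. Melanocyte markers in the same libraries had log2 fold changes of 0.93 to 3.78. Tspan17 was read at 93.1, 96.8 and 95.6 CPM in BAP1 KO-labelled libraries and at 46.8, 46.3 and 51.8 CPM under the WT label, which was 1.97-fold higher (adjusted p = 1.51e-08).

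Tspan14, which promotes Notch signalling through ADAM10, moved the other way. It was read at 53.0, 57.6 and 54.5 CPM in BAP1 KO-labelled libraries and at 151, 154 and 156 CPM in WT-labelled ones. That is 2.79-fold lower (log2 -1.48, SE 0.044, adjusted p = 1.27e-10), with no overlap. Tspan5, with 21.7, 21.4 and 23.3 CPM under the BAP1 KO label and 14.9, 16.4 and 15.8 CPM under the WT label, was higher by a log2 fold change of 0.49, SE 0.062 (adjusted p = 2.59e-05). Tspan15, which steers ADAM10 to N-cadherin, showed a similar step, with 19.6, 19.2 and 20.0 CPM in BAP1 KO-labelled libraries and 13.6, 13.7 and 15.7 CPM in WT-labelled ones (log2 0.45, SE 0.068, adjusted p = 1.14e-04). Tspan33, known from red cell precursors and B cells, was scarce. It had 16, 9 and 7 reads in BAP1 KO-labelled libraries and 39, 45 and 66 reads in WT-labelled ones. Its being lower (log2 -2.23, SE 0.29, adjusted p = 3.61e-05) was fixed by the count filter, which it passed through the WT libraries alone.

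Within the TspanC8 group the leading member therefore differed between the labels. By RPKM, Tspan10 made up 68.7 ± 0.427% of the group's sum in BAP1 KO-labelled libraries and 18.9 ± 0.420% in WT-labelled ones (mean ± SD, n = 3 each). Tspan14 made up 5.82 ± 0.152% under the BAP1 KO label and 43.8 ± 1.25% under the WT label, where it led the group. Tspan17 held 22.0 ± 0.301% under the BAP1 KO label and 30.1 ± 0.713% under the WT label. The group's summed RPKM was 253 ± 4.19 in BAP1 KO-labelled libraries and 92.1 ± 4.78 in WT-labelled ones. Adam10, the protease they escort, was read at 1259, 1207 and 1262 CPM in BAP1 KO-labelled libraries and at 423, 481 and 365 CPM under the WT label, 2.94-fold higher (log2 1.55, SE 0.08, adjusted p = 1.41e-08). The related protease Adam17, which is escorted by other proteins, was read at 86.0, 84.2 and 85.4 CPM in BAP1 KO-labelled libraries and at 151, 159 and 140.1 CPM in WT-labelled ones, and was lower (log2 -0.82, SE 0.05, adjusted p = 5.68e-08).

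**Figure D4:**
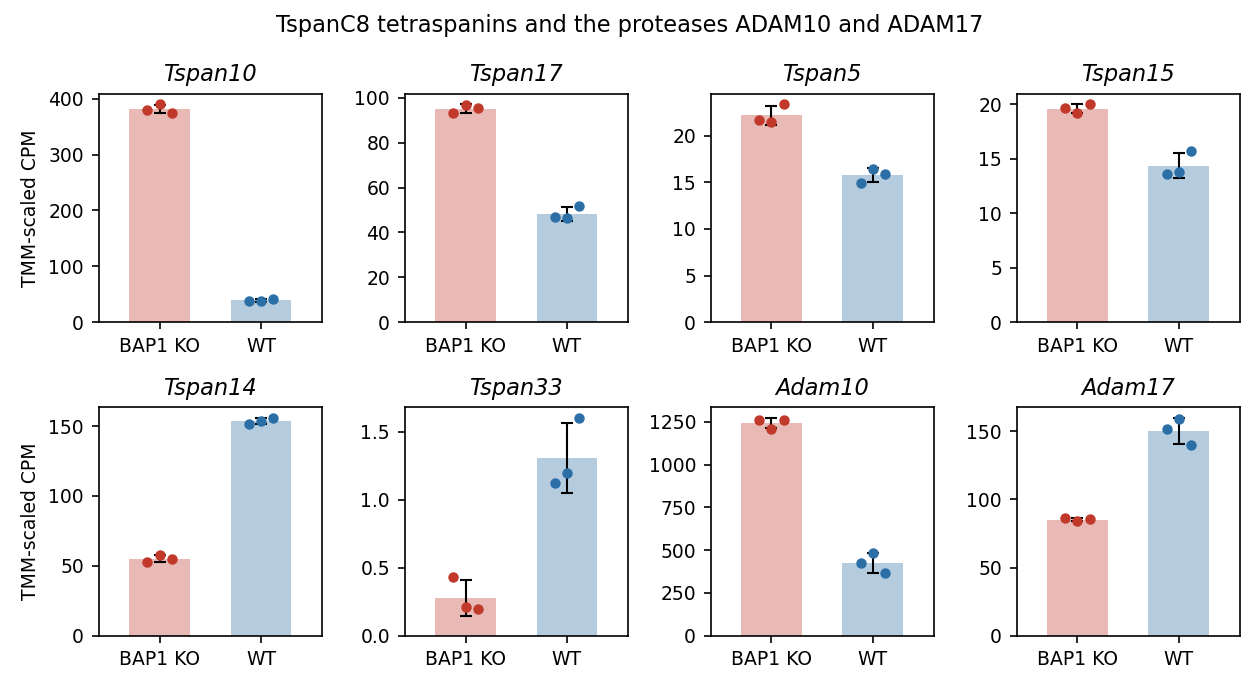
TMM-scaled CPM of the 6 TspanC8 tetraspanins and of the proteases Adam10 and Adam17 in BAP1 KO-labelled libraries (left bar of each panel) and WT (right bar). Bars are means, error bars the SD and points the 3 libraries of each label, with an axis from 0 that differs between panels. Tspan10, Tspan17, Tspan5, Tspan15 and Adam10 were higher under the BAP1 KO label, and Tspan14, Tspan33 and Adam17 lower. Tspan33 passed the count filter through the WT libraries alone, so its being lower was fixed by the filter.

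Upstream sequences are shown for Tspan10, Tspan4 and Cd63, the 3 members more than 2-fold higher, and for Cd9, a lower member that also holds a match, because MITF, the master transcription factor of melanocytes, binds E-boxes of the forms CACGTG and CATGTG. Mitf was read at 266, 259 and 259 CPM in BAP1 KO-labelled libraries and 53.2, 57.5 and 46.2 CPM in WT-labelled ones. Each is the 250 bases before an annotated start in the RefSeq promoter table of GRCm38.p6, 5′ to 3′ on the gene's strand, with the E-boxes found in capitals. Tspan10 (chr11:120442381-120442630, plus strand) has CACATG, the other strand of CATGTG, with its first base at position -21 from the start. For Tspan4 (chr7:141476130-141476379, plus strand) the second of 2 annotated starts has CACGTG at position -51, and the first start has no match. Cd9 (chr6:125494761-125495010, minus strand) has CACATG at position -38. Cd63 (chr10:128909095-128909344, plus strand) has no match in this window. The window lies inside the interval given above for Cd63, and the bases before that interval's first base, 128896231, were not searched.
Tspan10: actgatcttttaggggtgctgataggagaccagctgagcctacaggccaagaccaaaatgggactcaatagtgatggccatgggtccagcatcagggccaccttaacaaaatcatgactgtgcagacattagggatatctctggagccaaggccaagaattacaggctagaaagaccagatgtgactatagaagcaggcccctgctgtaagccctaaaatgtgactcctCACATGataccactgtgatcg
Tspan4: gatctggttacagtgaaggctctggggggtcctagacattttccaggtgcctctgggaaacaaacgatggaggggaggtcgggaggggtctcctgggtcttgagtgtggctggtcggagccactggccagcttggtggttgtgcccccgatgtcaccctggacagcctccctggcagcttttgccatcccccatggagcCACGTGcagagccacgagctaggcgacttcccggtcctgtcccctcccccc
Cd9: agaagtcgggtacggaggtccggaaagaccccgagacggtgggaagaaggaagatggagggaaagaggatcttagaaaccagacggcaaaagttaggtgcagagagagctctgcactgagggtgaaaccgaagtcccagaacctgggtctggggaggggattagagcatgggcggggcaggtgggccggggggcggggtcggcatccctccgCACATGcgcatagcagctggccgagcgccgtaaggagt
Cd63: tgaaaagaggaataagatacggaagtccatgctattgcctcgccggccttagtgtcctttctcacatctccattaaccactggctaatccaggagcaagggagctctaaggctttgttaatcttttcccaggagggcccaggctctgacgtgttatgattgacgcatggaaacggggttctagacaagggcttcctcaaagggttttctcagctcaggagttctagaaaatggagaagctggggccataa
Over the family, 28 of the 30 genes had an entry in the table, with 38 starts in all. On both strands, 6 of the 38 (15.8%) held CACGTG or CATGTG, beside 15.4% of the 15778 starts of genes tested and 17.6% of all 32851 starts in the table. The lower members Cd9, Tspan3 and Tspan9 and the uncalled Cd37 held a match, as did the higher Tspan10 and Tspan4. A match is a description of letters and not of binding.

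Of the other TSPAN genes, Tspan4 had the largest rise. Tspan4, a protein of migrasomes, the vesicles that migrating cells leave on their retraction fibres (gene ID 64540, chromosome 7, 141475236 to 141493427 on GRCm38), was read at 179, 177 and 176 CPM in BAP1 KO-labelled libraries and at 42.6, 42.0 and 44.4 CPM in WT-labelled ones. It was 4.13-fold higher (log2 2.05, SE 0.041, adjusted p = 5.66e-12). Its exons overlap the opposite-strand gene Chid1 over 13.4% of their bases, and the preparation does not mark strand, so reads there cannot be told apart. Chid1 was lower (log2 -0.26, SE 0.04, adjusted p = 1.22e-04), and the part of its reads in the value of Tspan4 was not tested. Tspan4 lies 3.75 kb from Cd151 on chromosome 7, with 1 annotated gene between them, and both were higher, by unequal amounts. Tspan12, a part of the Norrin and Frizzled-4 receptor complex of retinal vessels, was the other higher gene here, at 10.3, 9.40 and 10.7 CPM in BAP1 KO-labelled libraries and 6.30, 7.93 and 5.51 CPM under the WT label (log2 0.62, SE 0.12, adjusted p = 6.64e-04).

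Tspan6 (gene ID 56496, chromosome X, 133891068 to 133901208 on GRCm38) fell furthest among the members that reached 10 RPKM under either label. It was read at 11.0, 10.5 and 10.6 CPM in BAP1 KO-labelled libraries and at 101, 98.8 and 78.7 CPM in WT-labelled ones, 8.67-fold lower (log2 -3.12, SE 0.096, adjusted p = 1.76e-10). The libraries labelled BAP1 KO agree closely, and replicate 3 labelled WT stands below the other 2 of its label. Tspan6 thus fell in the same libraries in which the keratinocyte and fibroblast marker sums were lower, and their part in it was not tested.

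The remaining members of this group were lower by smaller amounts. Tspan9, an abundant tetraspanin of platelets, was read at 115, 113 and 109 CPM in BAP1 KO-labelled libraries and 183, 181 and 186 CPM under the WT label (log2 -0.71, SE 0.039, adjusted p = 2.32e-08). Tspan7, X-linked and known for glutamate receptor traffic in neurons, was read at 91.5, 88.3 and 90.0 CPM in BAP1 KO-labelled libraries and 125, 129 and 132 CPM in WT-labelled ones (log2 -0.52, SE 0.04, adjusted p = 4.14e-07). In both, the groups were apart by more than their own spread. Tspan3, a partner of claudin-11 in oligodendrocytes, was read at 147, 147 and 156 CPM in BAP1 KO-labelled libraries and 169.6, 181 and 168 CPM under the WT label, only 1.15-fold lower (adjusted p = 0.00131). Tspan2, a tetraspanin of myelinating glia, was read at 13.8, 12.4 and 13.9 CPM in BAP1 KO-labelled libraries and 17.3, 19.4 and 14.9 CPM in WT-labelled ones (log2 -0.37, SE 0.096, adjusted p = 0.00484). The lowest library labelled WT stood just above the highest labelled BAP1 KO.

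Tspan13, at 3.40, 3.68 and 2.73 CPM in BAP1 KO-labelled libraries and 5.70, 5.35 and 5.19 CPM under the WT label, was lower (log2 -0.72, SE 0.12, adjusted p = 1.75e-04). Tspan18, which supports calcium entry in endothelial cells, was read at 0.917, 0.516 and 0.586 CPM in BAP1 KO-labelled libraries and 2.47, 2.10 and 1.72 CPM in WT-labelled ones, 3.12-fold lower (adjusted p = 5.69e-05). Tspan31 was read at 128, 131 and 128 CPM in BAP1 KO-labelled libraries and 143, 141 and 143 CPM under the WT label (log2 -0.15, SE 0.036, adjusted p = 0.0033), and is uncertain, since 29.2% of its exon bases overlap the opposite-strand gene Cdk4. Cdk4 was lower by more (log2 -0.48, SE 0.039, adjusted p = 5.69e-07), at 179 ± 5.59 CPM in BAP1 KO-labelled libraries and 250.4 ± 5.38 CPM in WT-labelled ones. Without replicate 1 labelled WT the call of Tspan31 was lost (log2 -0.12, adjusted p = 0.0514). Tspan11 was not tested, with 2 reads over the 3 BAP1 KO-labelled libraries and 30 over the 3 labelled WT.

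The members known from epithelia, the bladder lining and photoreceptors were rare. Of the 5, 3 could be tested, and Tspan1 and Upk1b among them passed the count filter only through the WT label, so that their being lower was fixed by the filter and no shared direction is read from the 3. Upk1b, a uroplakin of the plaques on urothelium, was read at 0.135, 0.305 and 0.112 CPM in BAP1 KO-labelled libraries and at 4.86, 4.39 and 4.15 CPM in WT-labelled ones (log2 -4.53, SE 0.23, adjusted p = 1.24e-08). Tspan1, a tetraspanin of epithelia, was read at 0.189, 0.235 and 0.279 CPM in BAP1 KO-labelled libraries and at 3.45, 3.38 and 3.54 CPM under the WT label (log2 -3.87, SE 0.17, adjusted p = 4.21e-09). The groups were far apart for both, though the fall is a change from low to very low levels. Upk1a, the partner of uroplakin II, was read at 0.431, 0.774 and 0.753 CPM in BAP1 KO-labelled libraries and 2.04, 1.36 and 1.67 CPM in WT-labelled ones (log2 -1.35, SE 0.24, adjusted p = 3.25e-04). Among the other uroplakin genes, Upk2 had 2 reads over BAP1 KO-labelled libraries and 52 over WT-labelled ones. Upk3a had 0 reads under the BAP1 KO label and 1 under the WT label. Tspan8, of gut epithelium, was not tested, with 1 read over BAP1 KO-labelled libraries and 14 over WT-labelled ones. Prph2, which shapes the rims of photoreceptor discs, had 0 reads in all 6 libraries, which allows up to 0.0254 CPM over BAP1 KO-labelled libraries and 0.0270 over WT-labelled ones (3 reads of each label's total, counting error only). Its close relative Rom1, which is not on the list, was read at 9.57, 10.2 and 8.81 CPM in BAP1 KO-labelled libraries and 4.63, 4.81 and 5.12 CPM under the WT label (log2 0.97, SE 0.087, adjusted p = 1.45e-06).

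The leukocyte tetraspanins Cd37, Cd53 and Tspan32 stayed under 3 CPM in every library. Cd53 was read at 2.72, 2.53 and 2.73 CPM in BAP1 KO-labelled libraries and 1.52, 2.21 and 1.38 CPM in WT-labelled ones, and was higher (log2 0.64, SE 0.17, adjusted p = 0.0048). Cd37 had 0.674, 0.516 and 0.586 CPM under the BAP1 KO label and 0.575, 0.745 and 0.655 CPM under the WT label, overlapping and not past the threshold (log2 -0.16, SE 0.21, adjusted p = 0.521). Tspan32 was not tested, with 11 reads over BAP1 KO-labelled libraries and 26 over WT-labelled ones. Of 9 leukocyte markers tested, 6 were higher and 3 lower, beside 39.4% higher and 42.1% lower over all genes tested. The 3 lower were Aif1 (log2 -5.32), Coro1a (-1.47) and Itgam (-0.32). Itgam is uncertain, since 68.7% of its exon bases overlap the same-strand gene Gm49368. Aif1 and Coro1a stayed below the filter's minimum of 0.266 CPM under the BAP1 KO label. Their being lower was thus fixed by the filter. The 12 listed summed to 237 to 245 CPM under the BAP1 KO label and 53.1 to 60.0 CPM under the WT label. The most abundant of them was Lyz2, a lysozyme gene of macrophages, at 177 ± 4.72 CPM in BAP1 KO-labelled libraries and 22.6 ± 1.12 CPM in WT-labelled ones. The pan-leukocyte marker Ptprc was at 0.859 ± 0.0536 CPM in BAP1 KO-labelled libraries and 0.480 ± 0.103 CPM in WT-labelled ones. The T cell marker Cd3e had 0 reads in BAP1 KO-labelled libraries and 2 in WT-labelled ones. Their part in the level of Cd53 was not tested.

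The proteins that tetraspanins hold or carry were read from 7 lists of 49 genes, of which 43 were tested, 15 being higher and 26 lower in BAP1 KO-labelled libraries, beside 39.4% higher and 42.1% lower over all genes tested. All 7 integrin partners were lower, with a median log2 fold change of -1.28. Itga3, whose protein binds CD151 directly, was read at 121, 125 and 117 CPM in BAP1 KO-labelled libraries and 2176, 2129 and 2292 CPM under the WT label, 18.2-fold lower, while Cd151 was slightly higher in the same libraries. The other laminin-binding chains were lower by less, Itgb4 5.66-fold, Itga6 1.67-fold and Itga7 by the least of the 7 integrin partners. Itgb1, the beta chain that pairs with the alpha chains, was 1.41-fold lower and stayed abundant, at 1527 ± 35.1 CPM in BAP1 KO-labelled libraries and 2149.9 ± 209 CPM in WT-labelled ones.

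Of 10 immunoglobulin and adhesion partners 2 were higher and 8 lower, beside 39.4% higher and 42.1% lower over all genes tested. The main partners of CD9 and CD81 went in opposite directions. Ptgfrn was read at 51.2, 55.2 and 51.9 CPM in BAP1 KO-labelled libraries and 288, 284 and 291 CPM in WT-labelled ones, 5.45-fold lower (adjusted p = 2.02e-12). Igsf8, from the same protein family, was read at 179, 184 and 164 CPM in BAP1 KO-labelled libraries and 77.1, 79.3 and 84.0 CPM under the WT label, 2.19-fold higher (adjusted p = 6.25e-09). Igsf3, also of that family, was 3.35-fold higher. The epithelial partners Epcam (-5.55), Cldn7 (-4.81) and Cldn1 (-4.59), given as log2 fold changes, were the lowest of this list, and Epcam is also on the keratinocyte marker list. Icam1 was 20.8-fold and Cd44 2.82-fold lower.

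Among the proteases and growth factor partners, Adam10, Met and Kit were higher and Adam17, Mmp14, Egfr and Hbegf lower. Hbegf, whose uncut form is bound by CD9, was 13.7-fold lower and its receptor Egfr 19.8-fold lower. Kit, the stem cell factor receptor and also on the melanocyte marker list, was 7.38-fold higher.

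Cargo and sorting partners of CD63 divided into 6 higher and 5 lower, beside 39.4% higher and 42.1% lower over all genes tested. Pmel, the melanosomal fibril protein that CD63 helps sort, was 6.21-fold higher, and Apoe, which loads onto the small vesicles of melanosomes with it, 6.26-fold, with 995, 1012 and 978 CPM under the BAP1 KO label and 157, 149.7 and 170.2 CPM under the WT label. Timp1, a protease inhibitor that binds CD63 at the cell surface, was 4.44-fold lower (log2 -2.15, SE 0.10, adjusted p = 5.76e-09). Cd63 itself was 2.19-fold higher. The syntenin gene Sdcbp, which links tetraspanins to vesicle budding, was 1.83-fold higher, and the lysosomal protein Lamp1 1.47-fold. The vesicle docking GTPases went opposite ways. Rab27a, which also carries melanosomes to the cell edge, was read at 376, 375 and 386 CPM in BAP1 KO-labelled libraries and 44.2, 44.2 and 40.9 CPM in WT-labelled ones, 8.79-fold higher (adjusted p = 5.52e-13). Rab27b was read at 1.02, 1.17 and 0.864 CPM in BAP1 KO-labelled libraries and 24.6, 27.6 and 22.7 CPM under the WT label, 24.2-fold lower (adjusted p = 5.05e-11). The sorting proteins Tsg101, Pdcd6ip and Hgs were lower, with log2 fold changes of -0.40, -0.23 and -0.21. Lamp2 was higher by 0.33 on the log2 scale (adjusted p = 0.0186), a call lost without replicate 3 labelled BAP1 KO (adjusted p = 0.0604).

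Of the palmitoyltransferases that fix fatty acids to tetraspanins, Zdhhc7 and Zdhhc3 were higher by 0.29 and 0.18 on the log2 scale, and Zdhhc2 did not pass the threshold (log2 -0.055, SE 0.12, adjusted p = 0.677). Around Tspan12, the coreceptor gene Lrp6 was 2.74-fold higher and Lrp5 1.79-fold lower, Fzd4 did not pass the threshold (log2 0.18, SE 0.091, adjusted p = 0.0836), and the ligand Ndp had 1 read over BAP1 KO-labelled libraries and 5 over WT-labelled ones. Of the 7 lymphocyte, uroplakin and photoreceptor partners only Upk2 and Rom1 had enough reads to be tested. Upk2 stayed below the filter's minimum of 0.266 CPM under the BAP1 KO label and was tested through the WT libraries alone.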

How the data were processed

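PolyA RNA of 6 libraries from primary mouse skin melanocytes was prepared with a TruSeq v2 RNA kit and read as single 50-base sequences, per the labels' protocols. That kit does not mark strand. The deposited tables hold raw read counts per gene and a size-factor-adjusted RPKM, per the file headers. The aligner GSNAP and the build GRCm38 come from the submitters' processing notes, while counting rule and annotation were not given in the sources used here. RPKM was used only for levels between genes and shares of a sum.

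Counts were tested with edgeR 4.0.16 in R 4.3.3 (TMM scaling, filterByExpr, quasi-likelihood F test on all 6 libraries, Benjamini-Hochberg adjustment over 17121 genes, threshold 0.05). TMM factors lay between 0.975 and 1.03. SE is the size of the log2 fold change divided by the square root of F. DESeq2 1.42.0 and limma 3.58.1 gave alternatives, beside other scalings, filters, thresholds and leaving out each library. Of 36528 gene models, 85.0% matched a RefSeq symbol, and exon overlap came from GENCODE M21. Intervals and floors cover counting error only, and depth was 33987690 to 43773769 reads a library.

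The rule for named genes was that all 30 members are accounted for and every called member named, with values in all 6 libraries for called members averaging 2 CPM or more under their higher label, and that called partners may be named, with values for up to 6 a list by size of change. Values of Tspan33, Cd37, Upk1a, Igsf8, Igsf3, Cd44, Lamp1, Lamp2, Tsg101, Pdcd6ip, Hgs, the uncalled Zdhhc2 and Fzd4 and the untested Ndp and Upk3a stand outside it. So do those of the markers Mitf, Lyz2, Ptprc, Cd3e, Aif1, Coro1a and Itgam and of the overlapping genes Cdk4, Chid1 and Gm26728. All of these were chosen after they were seen. Members and lists were chosen with earlier results of these data known. Replicate numbers follow accession order and pair nothing.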

Additional observations from a re-analysis of the deposited data

How the results depend on the processing

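No tetraspanin called in the main test changed direction under any alternative run; Cd82 lost its call without BAP1 KO replicate 3, without WT replicate 3, without a filter and at 0.01, and Tspan31 without WT replicate 1. With RLE factors, library totals, the authors' factors, DESeq2 or limma-voom 25 members were called. Over all genes tested these runs called 77.9% to 81.9%. Without a filter 26 members were called, with a filter of 5 CPM all 19 that passed it, and at a threshold of 0.01 24. The shares over all genes tested were 57.1%, 85.0% and 74.2% in the same order. Leaving out each library in turn called 24 to 26 tetraspanins, 9 of them higher and 15 to 17 lower, and 40 to 42 partners. Over all genes tested these runs called 77.5% to 82.7%. A test against a 2-fold change called 9 tetraspanins, 3 higher and 6 lower, and 25 partners, 9 higher and 16 lower. It called 30.6% of all genes tested, and 34.7% of those calls were higher. The 6 lower tetraspanins include Tspan1, Tspan33 and Upk1b, whose being lower was fixed by the filter. The median log2 fold change of the tetraspanins was -0.32 with library totals, -0.33 without a filter and -0.32 to -0.21 with a library left out. The median over all genes tested was -0.0895 with library totals and -0.18 without a filter, beside -0.028 in the main run. Without a filter 29 tetraspanins were tested, with Tspan8, Tspan11 and Tspan32 among them. The cause of the shifts was not tested. Zdhhc2, not called, ranged from -0.15 without WT replicate 3 to 0.12 without WT replicate 2 on the log2 scale. No paired analysis was possible because the labels give no replicate numbers. Depth limits Prph2, Tspan8, Tspan11 and Tspan32, which had too few reads for the main test. In the edgeR run without a filter, Tspan11 (log2 -3.66, adjusted p = 8.77e-05) and Tspan8 (log2 -3.38, adjusted p = 0.00743) were called lower. Tspan32 was not called there (adjusted p = 0.059). Tspan11 also entered the runs without WT replicate 1 and without each BAP1 KO replicate, and is in their counts. It passed the filter there through the WT libraries alone, so its being lower in those runs was fixed by the filter.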
